A study of Mus musculus with 8 samples.

Results

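CD4+ T cells without EGFP fluorescence were compared between mice carrying a mutant and mice carrying a wild-type (WT) Foxp3 allele, each allele carrying an EGFP tag (enhanced green fluorescent protein). The comparison rests on 2 of the 8 arrays of the study, chosen by their labels: 1 array of mutant EGFP-negative cells and 1 array of WT EGFP-negative cells. The other 6 arrays hold EGFP-positive CD4+ cells, 3 from each allele, and are used here to set each difference beside replicated arrays. The study's question, as its title puts it, concerns precursors of regulatory T cells that arise when no functional Foxp3 protein is made; the EGFP-negative arrays bear on the conventional CD4+ cells of the same kinds of mice.

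Foxp3, encoded on the X chromosome, is the transcription factor on which regulatory T cells depend, the CD4+ cells that restrain other T cells. Mice and people without functional Foxp3 develop fatal autoimmunity in which conventional CD4+ cells become activated, divide and make effector cytokines. The mutant allele is called delta in the labels, and the mice are described as hemizygous males in the text on EGFP-positive cells. Cells were sorted by flow cytometry for CD4 and for presence or absence of EGFP, so EGFP-positive cells are those in which the tagged locus is transcribed. EGFP-negative cells are all remaining CD4+ cells, and the sources used here give neither the tissue, age or background strain of the mice nor whether cells of several animals were pooled. Whether replicates were separate mice is likewise not given, and p-values for EGFP-positive cells therefore measure only the spread between these arrays.

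All values are log2 of the deposited intensity, and a gene is represented by its brightest probe set. With 1 array per genotype the EGFP-negative difference has no error of its own and no test was made; a gene is called higher or lower when the arrays differed by at least 2-fold. As a description of array-to-array spread, the largest range within the 3 arrays of either EGFP-positive group is used, which had a median of 0.38 over all 18193 genes. Fold values are given only where both EGFP-negative arrays exceeded the array's median over probe sets. "Rose" and "fell" are kept for EGFP-positive cells, where limma compared 3 mutant with 3 WT arrays with Benjamini-Hochberg adjustment over 45037 probe sets at a threshold of 0.05. Precision is limited by the small number of arrays.

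Array medians lay between 53.3 and 54.7 intensity units. Across all probe sets the mutant EGFP-negative array correlated with the WT EGFP-negative array at 0.974 and with the 3 mutant EGFP-positive arrays at 0.982 to 0.986, while the WT EGFP-negative array correlated with the WT EGFP-positive arrays at 0.976 to 0.981. These coefficients describe probe sets that share probe affinities and normalization, and carry no test.

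The CD4 label held on both EGFP-negative arrays. Cd4 stood at 11.42 in WT and 11.40 in mutant EGFP-negative cells, and Cd3d, Cd3e and Cd3g, the signalling chains of the T cell receptor, differed by at most 0.21. The Foxp3 probe set went against the labels of the EGFP-positive cells: it stood at 4.75, 4.86 and 4.64 on the arrays whose label is WT EGFP-positive and at 11.10, 11.51 and 11.21 on those labelled mutant EGFP-positive. The sources used here do not place this probe set relative to the tag or the mutation, so its value does not check the allele, and groups are named as labelled throughout. If the labels of the EGFP-positive groups were exchanged, each rise, fall and comparison with mutant EGFP-positive arrays given here would turn; this was not tested. Over all probe sets, the mutant EGFP-negative array correlated at 0.971 to 0.977 with the arrays labelled WT EGFP-positive, below its values for those labelled mutant EGFP-positive. The EGFP-negative arrays read 4.52 (WT) and 6.14 (mutant) for Foxp3. Both lay far below the arrays labelled mutant EGFP-positive, and the mutant EGFP-negative array lay above all 3 labelled WT EGFP-positive, at 262% of their mean intensity.

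The EGFP-negative arrays also differed in sex-linked and antibody genes. Xist, the noncoding RNA of the inactive X chromosome, stood at 9.81 in WT and 6.19 in mutant EGFP-negative cells, and at 6.18, 6.06 and 11.43 in WT EGFP-positive and 6.36, 6.48 and 7.05 in mutant EGFP-positive cells. Thus 2 arrays, the WT EGFP-negative and replicate 3 of the WT EGFP-positive group, were high in Xist. The Y-linked gene Eif2s3y was expressed on every array, at 10.09 in WT and 10.50 in mutant EGFP-negative cells, and was lowest, at 8.80, on that same WT EGFP-positive replicate 3. Summed over 19 antibody genes, Jchain included, intensity was 8549 units on the WT and 2231 on the mutant EGFP-negative array. On the EGFP-positive arrays the sums were 3991, 5299 and 10821 (WT) and 1740, 1100 and 2447 (mutant). Ighm, the brightest of the 19, stood at 12.27 in WT and 10.34 in mutant EGFP-negative cells. It made up most of the sum on both EGFP-negative arrays, and its 10 other probe sets differed by -1.41 to 1.83. Between the EGFP-negative arrays, 9 of the 19 genes were at least 2-fold lower in the mutant. The part of female or antibody-secreting cells in the WT EGFP-negative values was not tested. Leaving out these genes and Xist, the count of lower genes was 179 in place of 189, and the count of higher genes stayed at 688.

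Of 18193 genes, 688 (3.78%) were at least 2-fold higher and 189 (1.04%) at least 2-fold lower in mutant than in WT EGFP-negative cells. At 4-fold the counts were 219 (1.2%) and 26 (0.143%), and the median over all genes was 0.00. The difference also went beyond the spread within the EGFP-positive groups for 654 of the higher (3.59% of all genes) and 156 of the lower genes (0.857%). Over single probe sets, 1269 (2.82%) were higher and 773 (1.72%) lower. The 15 genes with the largest positive difference were Gzmb, Gzma, Ccl3, Ifitm2, Gm4951, Il1r2, Penk, Ifitm3, Sostdc1, Cd83, Ebi3, Bhlhe40, Epas1, Rrm2 and Pdcd1, spanning 6.47 down to 3.54. They include granule proteases, a chemokine, membrane proteins induced by interferon, a decoy receptor for IL-1 and an inhibitory receptor. The 15 with the most negative difference spanned -3.74 to -2.31 and were Dapl1, BC018473, Jchain, Xist, Cd55, Tent5a, Igkv9-120, Lrrc75b, Iglv1, Igkv8-30, Pde5a, H2-Ob, Jun, Trgv1 and Tanc1. Of these, 4 are antibody genes (Jchain, Igkv9-120, Iglv1 and Igkv8-30), and the other probe sets of BC018473 (-0.33) and Igkv9-120 (-0.32 and -0.15) stood within 2-fold, as did that of Tanc1 (-0.72) and 1 of Iglv1 (0.19). Of the 877 genes past 2-fold, 499 had further probe sets on the array, and for 364 of these at least 1 of them fell short of 2-fold or ran the other way, so calls rest on the choice of the brightest probe set.

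**Figure D1:**
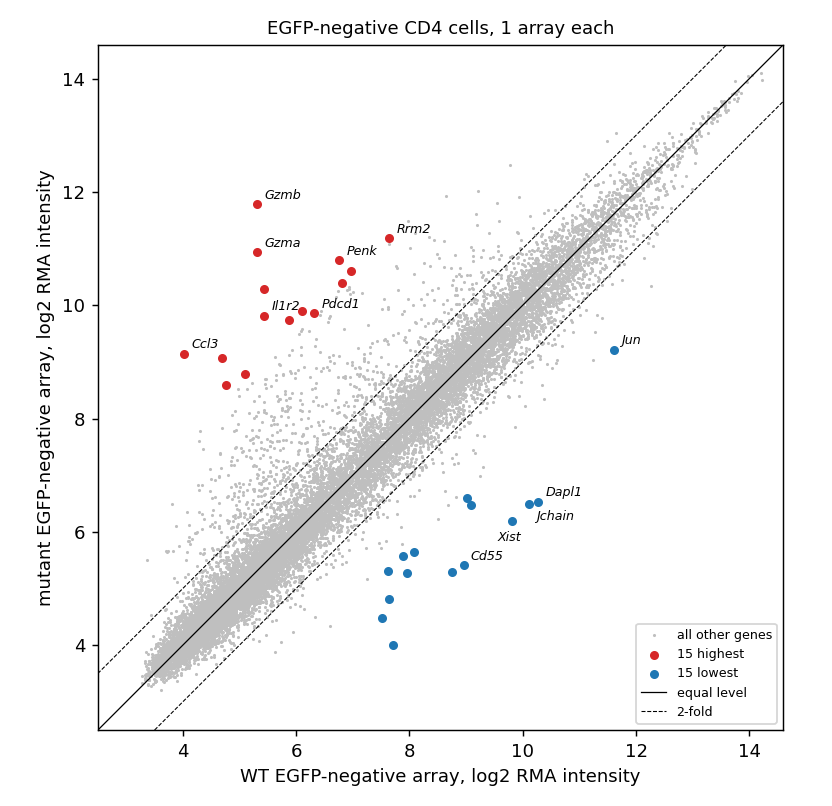
Each point is 1 of 18193 genes, with log2 intensity on the WT EGFP-negative array (x axis) and on the mutant EGFP-negative array (y axis); dashed lines mark 2-fold. More genes lie above the upper dashed line (688) than below the lower one (189), and Gzmb and Gzma lie farthest above.

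In EGFP-positive cells, 1897 genes (10.4%) rose and 1096 (6.02%) fell in mutant against WT arrays by limma, or 3308 (7.35%) and 2426 (5.39%) of the probe sets. Of the 688 genes higher in mutant EGFP-negative cells, 518 (75.3%) rose there, 11 fell and 159 were not called; the 518 are 27.3% of all that rose. Among the 189 lower genes, 93 (49.2%) fell, 6 rose and 90 were not called, and the 93 are 8.49% of those that fell. The contrasts share no array, although the labels do not say whether EGFP-negative and EGFP-positive cells came from the same mice. For 527 of the 688 higher and 127 of the 189 lower genes, the mutant EGFP-negative level lay between the WT EGFP-negative level and the mutant EGFP-positive mean. As these genes were chosen by the EGFP-negative difference, only their place relative to the mutant EGFP-positive mean was free. The share over all genes was not counted.

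Single cytotoxic and type 1 effector genes, Gzmb, Gzma and Ccl3, held the 3 largest differences, although most cytotoxic genes stood within 2-fold. Of 20 cytotoxic granule genes measured, 6 were higher and none lower, with a median of 0.36 (0.76 without dim genes), and of 16 genes of type 1 helper (Th1) cells, 11 were higher and 1 lower, with a median of 1.46. Gzmb, the granule protease that activates caspases in target cells, stood at 5.31 in WT and 11.78 in mutant EGFP-negative cells. In EGFP-positive cells it stood at 7.56, 7.59 and 7.64 (WT) and at 12.49, 12.21 and 12.15 (mutant). The WT EGFP-negative array was thus the lowest of the 8, and the mutant EGFP-negative array lay above all WT and below all mutant EGFP-positive arrays.

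Gzma, a granule tryptase, stood at 5.31 in WT and 10.94 in mutant EGFP-negative cells, at 5.37, 5.83 and 5.47 in WT EGFP-positive cells and at 11.89, 11.96 and 11.37 in mutant EGFP-positive cells. Gzmk was 10.9-fold higher (6.05 and 9.49) and Nkg7, a granule membrane protein, 8.30-fold higher (7.16 and 10.21). All 4 genes rose in mutant EGFP-positive cells, with limma adjusted p between 6.85e-06 and 2.87e-05. Prf1, which encodes the pore-forming protein perforin, stood at 8.02 in WT and 8.07 in mutant EGFP-negative cells, at 6.55, 7.06 and 6.22 in WT EGFP-positive and at 8.21, 7.87 and 7.67 in mutant EGFP-positive cells. Both EGFP-negative arrays thus lay at the level of the mutant EGFP-positive ones. The death ligand Fasl stood at 7.26 in WT and 7.23 in mutant EGFP-negative cells. The 5 granzymes Gzmc, Gzmd, Gzme, Gzmf and Gzmg lay under the array median on both EGFP-negative arrays.

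Ifng, the signature Th1 cytokine, was 6.67-fold higher, at 6.85 in WT and 9.59 in mutant EGFP-negative cells. Its EGFP-positive arrays stood at 6.71, 5.44 and 6.58 (WT) and 10.69, 10.29 and 9.88 (mutant), so the mutant EGFP-negative array lay just under the mutant EGFP-positive range. Tbx21, which encodes T-bet, the master regulator of Th1 cells, differed less, by 1.41 (7.11 and 8.52). Its EGFP-positive values were 6.02, 6.50 and 5.52 in WT and 9.66, 9.06 and 9.69 in mutant cells. The chemokine genes Ccl3 (4.03 and 9.15), Ccl4 (5.77 and 8.78) and Ccl5 (8.61 and 11.14), whose products attract T cells and monocytes, were higher by 5.12, 3.01 and 2.53. The chemokine receptor Cxcr3, a Th1 homing receptor, was 2.86-fold higher (9.01 and 10.53). Il18r1, a chain of the IL-18 receptor, was the 1 Th1 gene lower in the mutant, by -1.34, while its partner chain Il18rap was higher by 1.39. The WT EGFP-negative array itself was not the lowest for each of these genes: Ccl5, Tbx21 and Ifng stood above all 3 WT EGFP-positive arrays there.

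Markers of other cells that use granzymes were measured beside these genes. Of 8 natural killer cell markers, Gzma, Eomes and Ncr1 were higher, while Klra8 (3.65 and 3.76) and Klre1 (4.89 and 4.56) lay under the array median on both EGFP-negative arrays. Summed over the 8, intensity was 408 in WT and 2801 in mutant EGFP-negative cells, 368 to 536 in WT EGFP-positive and 3036 to 4409 in mutant EGFP-positive cells. Gzma made up most of these mutant sums. Over the other 7 markers, intensity was 369 in WT and 839 in mutant EGFP-negative cells, 326 to 492 in WT EGFP-positive and 398 to 460 in mutant EGFP-positive cells. Cd8a was higher by 2.24 (6.28 and 8.52), less than the range of 2.88 within an EGFP-positive group, while Cd8b1, the partner chain of the CD8 co-receptor, stood at 7.67 and 7.59. The other probe sets of Cd8a differed by -0.27 to 1.70. Of 22 myeloid markers 5 were higher, among them the neutrophil calcium-binding proteins S100a8 (4.65 and 6.97) and S100a9 (4.85 and 7.19), whose differences of 2.32 and 2.34 were smaller than the ranges of 2.71 and 2.69 within an EGFP-positive group. Only 2 of the 5, Cybb and Ccr2, exceeded that spread, with differences of 1.901 and 1.65 against ranges of 0.71 and 0.75. The other probe sets of Cybb differed by 1.06 to 2.36 and those of Ccr2 by -0.38 to 1.18. Mpo and Lyz2 lay below the median of all probe sets on both arrays. The part of such cells in the effector genes was not tested. In RNA from a sorted population, a gene read in more cells and a gene read at a higher level per cell cannot be told apart.

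Genes of type 2 helper (Th2) cells were also higher: 7 of 14 measured passed 2-fold, none was lower, and the median was 1.17. Il4, the cytokine that drives antibody class switching, was 8.26-fold higher, at 6.08 in WT and 9.13 in mutant EGFP-negative cells, with 4.65, 4.84 and 4.73 in WT EGFP-positive and 9.85, 9.66 and 9.73 in mutant EGFP-positive cells. All 4 mutant arrays lay above all 4 WT arrays, and the mutant EGFP-negative array lay nearest the mutant EGFP-positive ones. Il13 stood at 4.92 and 6.29 and Il5 at 5.19 and 6.14 in WT and mutant EGFP-negative cells, levels low on the scale of the array. Gata3, the master regulator of Th2 cells, differed by 0.41 (8.86 and 9.27), within the range of 1.04 seen among its replicated arrays. Maf, a factor that activates Il4 and Il21, was 3.77-fold higher, with other probe sets between 0.76 and 3.31. Of 7 Th17 genes, Ahr and Batf were higher, although the other probe set of Ahr differed by 0.18, and Il17a stood at 5.76 in WT and 5.15 in mutant EGFP-negative cells, near the median of all probe sets on both.

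Genes of follicular helper T cells were higher too, several of them beyond the EGFP-positive arrays. These cells enter B cell follicles through Cxcr5 and provide IL-21 to germinal centre B cells. Of 16 such genes 9 were higher and none lower in mutant EGFP-negative cells, with a median of 1.25, and for 9 of 16 the mutant EGFP-negative array lay above all 3 mutant EGFP-positive arrays, as it did for 28.0% of all genes. Cxcr5 stood at 6.44 in WT and 9.90 in mutant EGFP-negative cells, 11-fold apart, but at 7.33, 8.17 and 7.75 in WT and 7.99, 6.91 and 8.33 in mutant EGFP-positive cells. The EGFP-positive groups overlapped, and limma gave a difference of -0.00 (adjusted p = 0.997). The mutant EGFP-negative array was the highest of the 8 by 1.57, and its intensity was 411% of the mutant EGFP-positive mean.

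Pdcd1, the inhibitory receptor PD-1 that is abundant on follicular helper cells, stood at 6.32 in WT and 9.86 in mutant EGFP-negative cells, at 7.75, 8.56 and 7.41 in WT EGFP-positive and at 9.36, 9.31 and 9.65 in mutant EGFP-positive cells. Il21 stood at 5.70 and 8.96 in WT and mutant EGFP-negative cells, at 4.27, 4.45 and 4.56 in WT EGFP-positive and at 8.18, 8.09 and 8.01 in mutant EGFP-positive cells. Both genes were highest on the mutant EGFP-negative array. Bcl6, the repressor that specifies follicular helper cells, was 2.84-fold higher (7.42 and 8.92), above all 6 EGFP-positive arrays, which lay between 7.35 and 8.07. Tox2 was 10.8-fold higher (7.65 and 11.08), although its other probe set differed by 0.66 and that of Il21 by 0.62. Icos, the costimulatory receptor needed by these cells, was 4.77-fold higher (9.55 and 11.81). Sostdc1, a secreted antagonist of BMP and Wnt ligands, stood at 4.77 in WT and 8.59 in mutant EGFP-negative cells, and its intensity was 372% of the mutant EGFP-positive mean; its other probe set differed by 4.92. B cell markers stood beside these genes: of 16 measured, Cd22 was higher (6.37 and 7.55), Cd72 lower (6.81 and 5.43), Cd79a (5.98 and 5.64) and Ms4a1 (5.80 and 5.45) near the median of all probe sets, and their summed intensity was 1825 in WT and 2595 in mutant EGFP-negative cells, against 1201 to 1802 in the EGFP-positive arrays. Their part in the follicular helper genes was not tested.

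**Figure D2:**
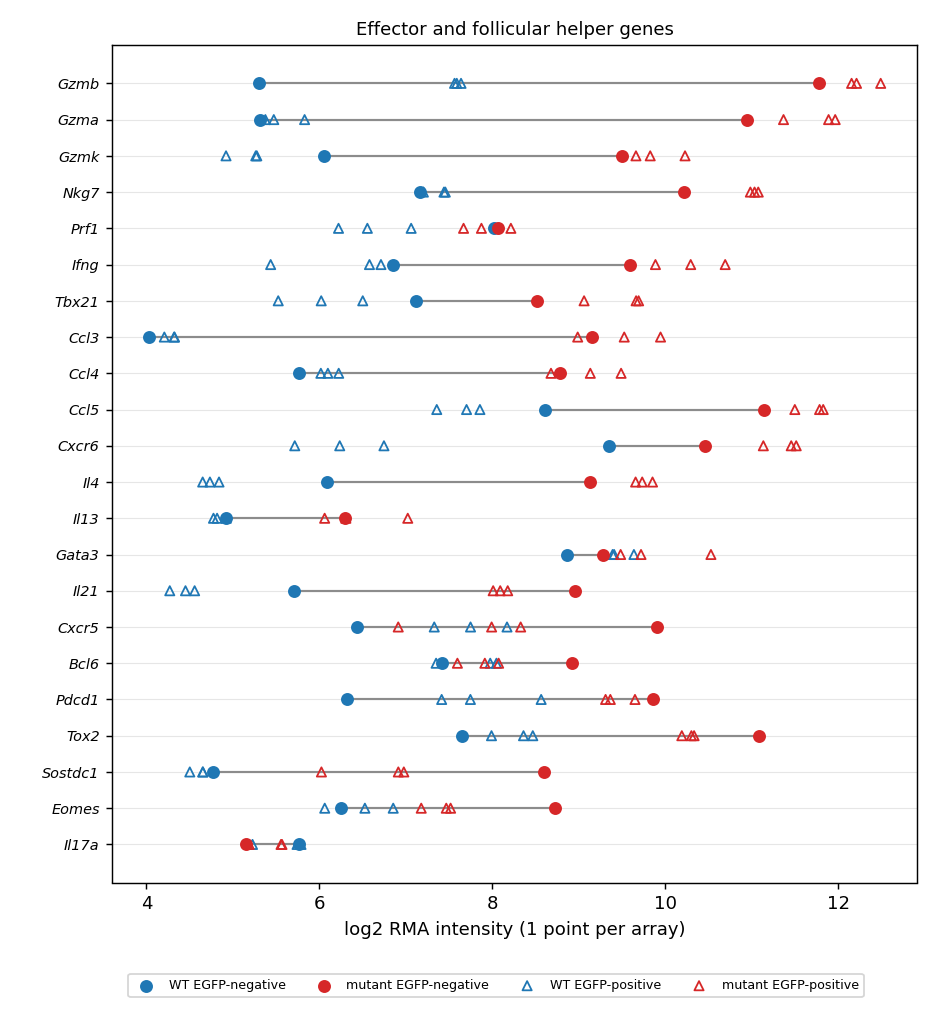
Log2 intensity (x axis) of 22 effector and follicular helper genes, 1 symbol per array: filled circles are the WT (blue) and mutant (red) EGFP-negative arrays, joined by a line, and open triangles the 3 WT (blue) and 3 mutant (red) EGFP-positive arrays. For Gzmb, Gzma and Il4 the red circle lies just below the red triangles, while for Cxcr5, Bcl6, Tox2, Sostdc1 and Eomes it lies to the right of all other symbols; Prf1 hardly differs between the circles.

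The mutant EGFP-negative array was at least 2-fold above every other array for 12 genes and at least 2-fold below every other array for 0. These were Tdgf1, Efna5, H2-Q2, Sostdc1, Cxcr5, Tspan9, Pdzrn3, Eomes, Trim16, Mpeg1, H2-DMa and Klk1b27. Tdgf1, a Nodal co-receptor, had the largest margin over the next array, 2.93, and stood at 5.18 in WT and 8.11 in mutant EGFP-negative cells. Eomes, a T-box factor of cytotoxic and memory cells, stood at 6.25 in WT and 8.73 in mutant EGFP-negative cells. Its EGFP-positive arrays stood at 6.06, 6.85 and 6.53 (WT) and at 7.47, 7.52 and 7.18 (mutant), all below the mutant EGFP-negative array. For the WT EGFP-negative array the same counts were 31 genes above and 123 below every other array. Genes that set 1 EGFP-negative array apart from the other 7 were thus mostly low ones on the WT array.

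Activation receptors formed a broad group. Of 23 T cell activation genes 10 were higher and none lower, with a median of 0.92, and in EGFP-positive cells 1 rose and 3 fell by limma. Cd83, a membrane protein of activated lymphocytes, stood at 6.10 in WT and 9.90 in mutant EGFP-negative cells. Its EGFP-positive values were 10.60, 10.32 and 10.92 in WT and 10.60, 10.98 and 10.66 in mutant cells, and these groups overlapped. Bhlhe40, a transcription factor needed for cytokine production, was 12.4-fold higher (6.96 and 10.60), but its difference of 3.63 was smaller than the range of 3.95 within the WT EGFP-positive arrays. Tnfrsf4, the costimulatory receptor OX40, was 6.55-fold higher (8.43 and 11.15). Cd69, an early activation marker, stood at 10.29 in WT and 9.37 in mutant EGFP-negative cells, within the range of 2.08 of its replicated arrays.

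Of 13 coinhibitory receptors 8 were higher and none lower, with a median of 1.5. Beside Pdcd1 they included Lag3, a receptor for MHC class II, 9.48-fold higher (5.88 and 9.12), Ctla4, a competitor of CD28, 9.05-fold higher (6.09 and 9.26), and Havcr2, the receptor TIM-3, higher by 2.46 (4.28 and 6.75). Havcr2 and Lag3 rose in mutant EGFP-positive cells (limma adjusted p = 0.000321 and 0.000784), while Ctla4 did not pass the test there (difference -0.61, adjusted p = 0.633). Of 23 effector and memory genes 9 were higher and none lower, with a median of 0.75 (0.44 with the median over the probe sets of each gene). Lgals3, a galectin, was 11.4-fold higher (6.74 and 10.24), Plac8 7.30-fold (8.34 and 11.21) and Itgb1, the integrin beta-1 chain, 3.59-fold (9.13 and 10.97). The 5 other probe sets of Itgb1 differed by -0.08 to 1.39. Anxa2 was 7.97-fold higher by its brightest probe set, with other probe sets between -0.17 and 0.44. Cd44, the classical marker of antigen-experienced T cells, differed by 0.75 (9.42 and 10.17) by its brightest probe set. This was more than its spread of 0.20 within EGFP-positive groups but less than 2-fold. Its 3 other probe sets differed by 0.15 to 1.47.

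Signature genes of regulatory T cells were higher in mutant EGFP-negative cells as well. All 39 measured members had a positive difference, 30 passed 2-fold, and the median was 2.09, against 0.00 for all genes. The mutant EGFP-negative array reached the lowest WT EGFP-positive array in 11 of the 39, against 71.6% of all genes, and the lowest mutant EGFP-positive array in 3, against 67.9%. Ikzf2, which encodes Helios, was 11.3-fold higher, at 7.98 in WT and 11.48 in mutant EGFP-negative cells. Its 6 EGFP-positive arrays lay above both, at 12.26, 12.13 and 12.09 in WT and 12.12, 12.11 and 12.09 in mutant cells.

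Il2ra, the high-affinity chain of the IL-2 receptor, stood at 5.38 in WT and 7.47 in mutant EGFP-negative cells, between 9.82 and 10.02 on the 3 WT EGFP-positive arrays and at 9.06, 9.45 and 9.07 in mutant EGFP-positive cells. Penk, the opioid peptide precursor proenkephalin, was 16.3-fold higher, at 6.76 in WT and 10.79 in mutant EGFP-negative cells, with 9.05, 9.67 and 9.12 in WT and 11.86, 12.31 and 12.04 in mutant EGFP-positive cells. Ebi3, a subunit of IL-27 and IL-35, stood at 5.09 and 8.79 in WT and mutant EGFP-negative cells. For all 3 genes the mutant EGFP-negative array lay between the WT EGFP-negative and the mutant EGFP-positive arrays.

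The position of Foxp3 turned with the EGFP-positive group it was set against. Its mutant EGFP-negative intensity was 2.83% of the mutant EGFP-positive mean, the lowest of the 39 members, but 262% of the WT EGFP-positive mean. By the first measure it was followed by the chemokine receptor Ccr8 with 23.3%; the median was 48.0% and 18 members exceeded 50%. Gpr83 (8.54 and 9.23), Nrp1 (7.33 and 8.69) and Tnfrsf18 (9.46 and 10.20), further genes of this group, stood below all 6 EGFP-positive arrays in both EGFP-negative populations. Of 19 genes that regulatory T cells express weakly, 4 were higher (Il21, Il4, Ifng and Il2) and 5 lower (Il7r, Actn1, Atp1b1, Prg4 and Dapl1). Il2, the cytokine that regulatory T cells consume, stood at 4.94 in WT and 6.48 in mutant EGFP-negative cells, above all 6 EGFP-positive arrays, which lay between 4.12 and 5.51.

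**Figure D3:**
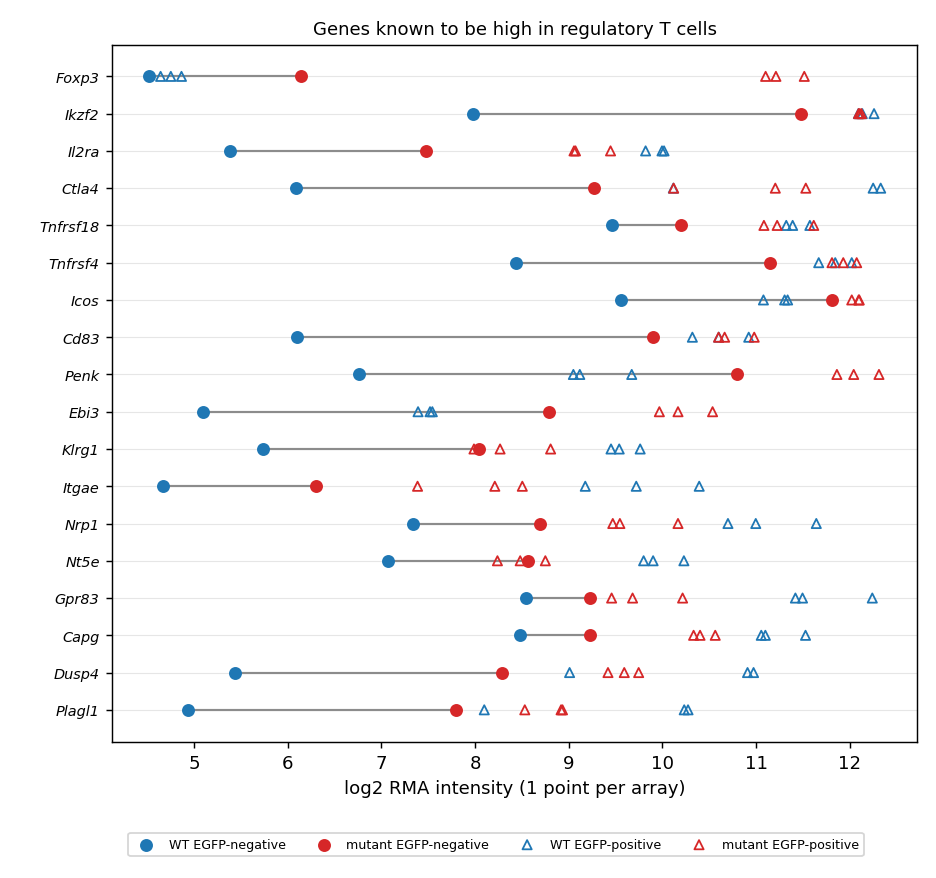
Log2 intensity (x axis) of 18 regulatory T cell signature genes, 1 symbol per array: filled circles are the EGFP-negative arrays (blue WT, red mutant), joined by a line, and open triangles the EGFP-positive arrays of the same colours. The red circle lies to the right of the blue one in each row and mostly left of the triangles; for Foxp3 it stays at 6.14, right of the blue triangles and far left of the red ones at 11.10 to 11.51.

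Genes of the cell division machinery were higher together. Of 47 mitosis and spindle genes 44 were at least 2-fold higher and none lower, with a median of 2.70, and the 44 all exceeded the spread within EGFP-positive groups. Of 42 DNA replication genes 30 were higher, with a median of 1.34. Mki67, the proliferation antigen Ki-67, was 8.99-fold higher, at 8.11 in WT and 11.27 in mutant EGFP-negative cells. Its EGFP-positive values were 9.45, 8.69 and 9.99 in WT and 11.95, 11.94 and 12.09 in mutant cells, so the groups did not overlap and the mutant EGFP-negative array lay below the mutant EGFP-positive ones.

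Rrm2, the ribonucleotide reductase subunit that limits DNA precursor supply, was 11.6-fold higher (7.64 and 11.18), Tk1, a thymidine kinase, 10.6-fold (6.43 and 9.83), and Uhrf1, which maintains DNA methylation, 9.82-fold (5.92 and 9.22). Cdca8, of the chromosomal passenger complex, was 10.8-fold higher (6.71 and 10.14). None of the 47 mitosis and 42 replication genes reached the lowest mutant EGFP-positive array, and all members of both lists reached at least the lowest WT EGFP-positive array. By limma 47 and 39 of them rose in EGFP-positive cells. Of the 44 higher mitosis genes 29 had further probe sets, and for 18 of them at least 1 fell short of 2-fold; so did 14 of 23 among the higher replication genes. The other probe sets of Nusap1 (0.09), Ttk (0.31), Bub1 (0.44), Anln (0.15) and Aurka (-0.12) did not share the differences of the brightest ones, which lay between 2.45 and 3.40. Leaving out both lists, 614 genes were still at least 2-fold higher.

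Promoters of mitosis genes often hold the cell cycle homology region, TTTGAA, to which the MuvB complex binds in repressing these genes in resting cells. The 250 bases before the start of 3 genes of the mitosis list are shown, from RefSeq on GRCm38.p6 and read 5′ to 3′ on the gene's strand, with matches to TTTGAA on either strand (TTCAAA where it lies on the other) in capitals. They are Cep55 (chr19:38054791-38055040, plus strand), which completes cytokinesis, Ccnb2 (chr9:70421555-70421804, minus strand), cyclin B2, and Ube2c (chr2:164769679-164769928, plus strand), which marks mitotic cyclins for destruction.
Cep55: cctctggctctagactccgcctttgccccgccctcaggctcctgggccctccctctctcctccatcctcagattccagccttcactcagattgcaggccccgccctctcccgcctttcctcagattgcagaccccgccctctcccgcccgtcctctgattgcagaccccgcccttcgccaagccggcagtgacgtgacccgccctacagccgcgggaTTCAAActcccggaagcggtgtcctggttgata
Ccnb2: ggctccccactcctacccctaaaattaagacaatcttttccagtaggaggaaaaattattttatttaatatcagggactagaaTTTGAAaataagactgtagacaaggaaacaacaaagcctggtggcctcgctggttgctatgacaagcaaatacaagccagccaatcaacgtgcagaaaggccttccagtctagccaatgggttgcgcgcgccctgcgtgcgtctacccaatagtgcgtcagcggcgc
Ube2c: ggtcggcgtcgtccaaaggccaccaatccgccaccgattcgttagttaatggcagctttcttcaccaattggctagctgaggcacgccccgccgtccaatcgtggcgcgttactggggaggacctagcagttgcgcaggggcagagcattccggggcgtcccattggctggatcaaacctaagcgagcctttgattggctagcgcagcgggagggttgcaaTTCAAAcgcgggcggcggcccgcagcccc
Cep55 was 11.1-fold higher in mutant EGFP-negative cells (6.10 and 9.58), Ccnb2 10.2-fold (6.94 and 10.29) and Ube2c 9.27-fold (6.60 and 9.81). The letters were present in 15 of 39 mitosis genes with a promoter here (38.5%) and in 18.3% of the promoters of 27025 genes. A match is a description of the sequence, and short motifs can overlap other motifs; binding was not measured.

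Interferon response genes were partly higher. Of 38 measured, 7 were higher and 1 lower, and the median was 0.53; in 23 of 38 the mutant EGFP-negative array lay above all 3 mutant EGFP-positive arrays, against 28.0% of all genes. Cxcl10, a ligand of Cxcr3, stood at 5.65 in WT and 8.77 in mutant EGFP-negative cells, at 7.03, 6.01 and 7.57 in WT EGFP-positive and 9.70, 9.67 and 9.23 in mutant EGFP-positive cells. Gbp3, an interferon-induced GTPase, was 4.40-fold higher (7.97 and 10.11), but its EGFP-positive arrays stood at 10.96, 11.26 and 10.68 (WT) and 10.32, 10.47 and 10.55 (mutant). Both EGFP-negative arrays thus lay below all EGFP-positive arrays for Gbp3. Zbp1, a sensor of nucleic acids, was 2.76-fold higher (9.07 and 10.54), and Ifi204 stood at 5.95 and 4.24, the only member at least 2-fold lower. Outside this list, Ifitm3, a restriction factor of virus entry, was 14.5-fold higher (5.88 and 9.74) and Ifitm2 higher by 4.86 (5.43 and 10.29).

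The interferon-stimulated response element is a motif that STAT and IRF factors bind; its core is GAAA, then 2 bases of any kind, then GAAA. Matches on either strand (with TTTC at both ends where it lies on the other) are shown in capitals in the 250 bases before the start of 3 interferon response genes that were higher. They are Cxcl10 (chr5:92348890-92349139, minus strand), Gbp3 (chr3:142559794-142560043, plus strand), in which 2 matches overlap, and Gbp2 (chr3:142620413-142620662, plus strand), a GTPase of the same family.
Cxcl10: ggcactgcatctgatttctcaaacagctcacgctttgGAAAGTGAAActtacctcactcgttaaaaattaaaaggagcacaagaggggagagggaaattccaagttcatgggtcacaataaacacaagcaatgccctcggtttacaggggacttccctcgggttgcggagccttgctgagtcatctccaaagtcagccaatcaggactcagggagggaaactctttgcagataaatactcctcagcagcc
Gbp3: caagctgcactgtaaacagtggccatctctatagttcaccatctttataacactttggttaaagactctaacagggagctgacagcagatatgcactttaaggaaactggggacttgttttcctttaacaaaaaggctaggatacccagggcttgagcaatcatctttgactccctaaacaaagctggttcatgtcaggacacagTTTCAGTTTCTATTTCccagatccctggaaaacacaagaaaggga
Gbp2: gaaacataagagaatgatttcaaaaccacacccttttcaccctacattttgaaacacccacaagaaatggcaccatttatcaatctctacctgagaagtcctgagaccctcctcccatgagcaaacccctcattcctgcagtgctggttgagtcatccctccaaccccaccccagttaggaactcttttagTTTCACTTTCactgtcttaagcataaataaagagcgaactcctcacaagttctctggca
Gbp2 was 2.18-fold higher in mutant EGFP-negative cells (10.56 and 11.69). The core was present in 15 of 29 interferon response genes with a promoter here (51.7%) and in 3.46% of all 27025; of the 5 such genes that were at least 2-fold higher, 3 held it. Sequences are RefSeq reference promoters and say nothing of binding in these cells.

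**Figure D4:**
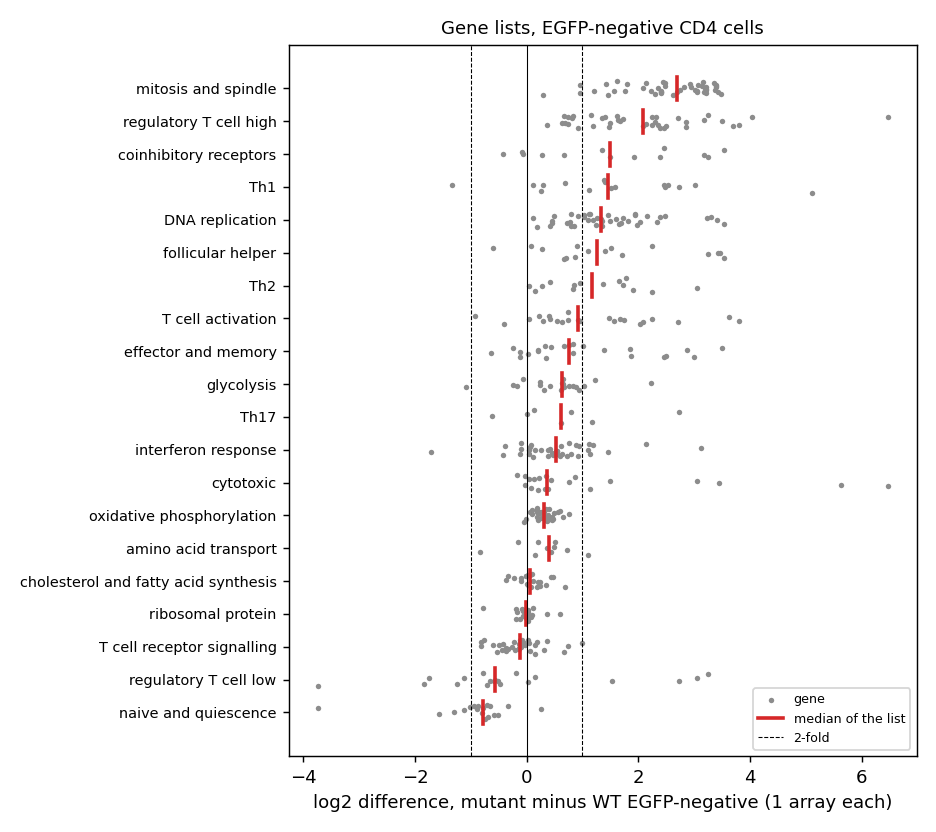
Log2 difference of mutant minus WT EGFP-negative cells (x axis) for the members of 20 gene lists, 1 grey point per gene, with the median of each list as a red bar; dashed lines mark 2-fold. The mitosis list (median 2.70) and the regulatory T cell signature (2.09) lie farthest right, the ribosomal protein list lies at 0, and the naive and quiescence list (-0.78) lies left.

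Naive and quiescence genes were lower. Of 18 measured, 17 had a negative difference, 5 passed 2-fold (Dapl1, Tob1, Foxo1, Il7r and S1pr1) and none was higher, with a median of -0.78. All of the 5 but Il7r (-1.12, range 1.89) exceeded the spread within EGFP-positive groups. The other probe set of Tob1 differed by -0.25. Dapl1, a gene of naive lymphocytes, stood at 10.27 in WT and 6.54 in mutant EGFP-negative cells, 13.4-fold apart. Its EGFP-positive arrays stood at 7.24, 6.14 and 6.78 (WT) and 5.30, 4.91 and 5.30 (mutant). The WT EGFP-negative array was therefore the highest of the 8, and the mutant EGFP-negative array lay inside the WT EGFP-positive range.

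Foxo1, the transcription factor that maintains naive T cells and drives Il7r and Klf2, stood at 12.14 in WT and 10.84 in mutant EGFP-negative cells, at 11.98, 12.03 and 12.17 in WT EGFP-positive and 10.48, 10.17 and 10.10 in mutant EGFP-positive cells. The groups separated by genotype, and limma gave a fall of -1.81 in EGFP-positive cells (adjusted p = 0.000254), while the other probe sets of Foxo1 differed by -0.96 to 0.61 between EGFP-negative arrays. Il7r, the survival receptor for IL-7, stood at 12.37 and 11.25 in WT and mutant EGFP-negative cells. Its EGFP-positive values overlapped between genotypes, at 10.97, 11.34 and 10.58 in WT and 9.55, 11.43 and 9.92 in mutant cells. S1pr1, the receptor that lets T cells leave lymph nodes, was 2.01-fold lower (11.30 and 10.29). Ccr7, the lymph node homing receptor, stood at 12.21 and 11.54, Lef1 at 11.13 and 10.35 and Satb1 at 12.55 and 11.97, all less than 2-fold lower and still bright. By limma 12 of the 18 fell in EGFP-positive cells.

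Several other genes were lower on the mutant EGFP-negative array. Cd55, which shields cells from complement, stood at 8.96 in WT and 5.41 in mutant EGFP-negative cells, at 8.30, 8.11 and 8.13 in WT EGFP-positive and at 5.05, 4.64 and 4.53 in mutant EGFP-positive cells. Every WT array lay above every mutant array, with only 1 array per genotype in EGFP-negative cells. The other probe sets of Cd55 differed by -3.46 to -2.88 between the EGFP-negative arrays. Tent5a, a poly(A) polymerase, stood at 8.75 and 5.29 in WT and mutant EGFP-negative cells, and H2-Ob, a chain of the MHC class II accessory molecule H2-O, at 9.01 and 6.60, 5.34-fold apart. By limma Cd55 (adjusted p = 5.47e-05), Tent5a (0.00306) and H2-Ob (0.000196) fell in mutant EGFP-positive cells. Smad7, an inhibitor of TGF-beta signalling, differed by -1.32 (9.97 and 8.64), and Tgfbr3, a TGF-beta co-receptor, was 2.80-fold lower (11.31 and 9.82). The other probe set of each stood within 2-fold (Smad7 -0.93, Tgfbr3 -0.80). The Smad7 difference lay just past its range of 1.26 within an EGFP-positive group.

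Immediate-early genes, which respond within minutes to stimulation and to cell handling, were partly lower. Of 27 immediate-early and heat shock genes 2 were higher (Ier3 and Egr2) and 5 lower (Jun, Hspa1b, Fosb, Zfp36 and Fos), with a median of -0.12. None of the 5 exceeded the spread within EGFP-positive groups. Jun stood at 11.62 in WT and 9.22 in mutant EGFP-negative cells, at 11.66, 9.96 and 11.77 in WT EGFP-positive and at 9.90, 9.88 and 5.37 in mutant EGFP-positive cells. Its range within a group reached 4.52, larger than its difference.

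**Figure D5:**
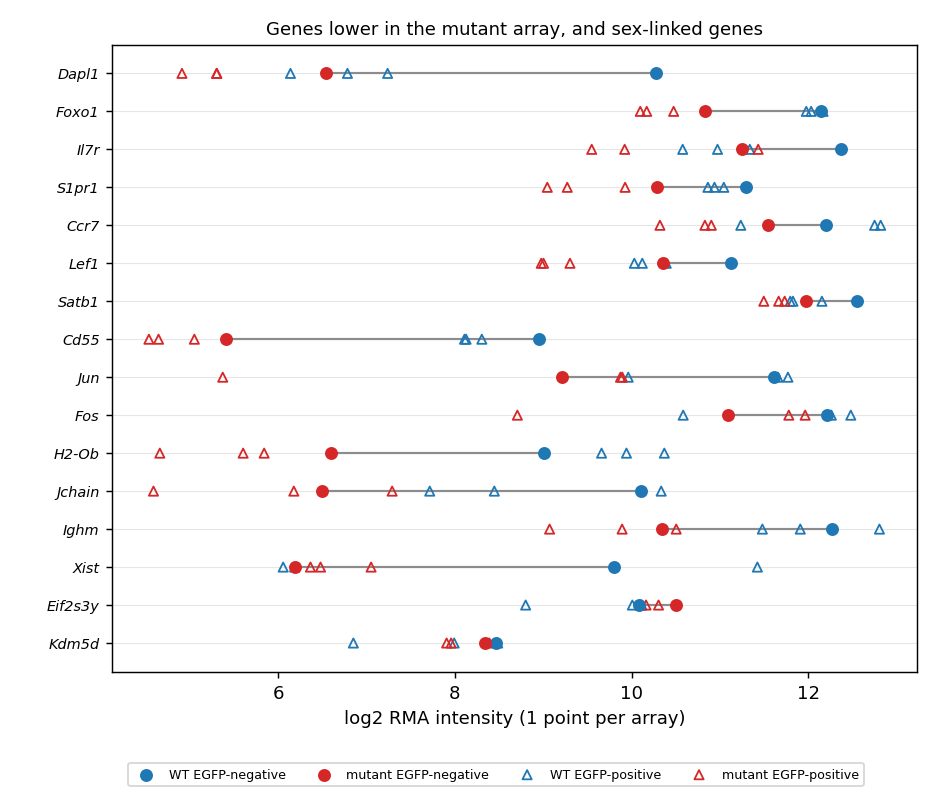
Log2 intensity (x axis) of 16 genes, most of them lower on the mutant EGFP-negative array, with sex-linked genes at the bottom; filled circles are the EGFP-negative arrays (blue WT, red mutant), joined by a line, and open triangles the EGFP-positive arrays of the same colours. For Cd55 and Foxo1 every blue symbol lies to the right of every red one. Jun has 1 red triangle at 5.37 far from the others, and Xist is high in the blue circle (9.81) and in 1 blue triangle (11.43).

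Glycolysis genes were partly higher. No oxidative phosphorylation, T cell receptor signalling or ribosomal protein gene passed 2-fold. Over all genes 3.78% were at least 2-fold higher and 1.04% lower, so lists of this size hold few calls by that share alone. Of 20 glycolysis genes 3 were higher (Tpi1, Aldoc and Slc16a1) and 1 lower (Pdk1), with a median of 0.64; for Aldoc, Slc16a1 and Pdk1 another probe set stood within 2-fold, while Tpi1, triosephosphate isomerase, was 4.70-fold higher (9.19 and 11.42). None of 34 oxidative phosphorylation genes passed 2-fold, although 32 had a positive difference and the median was 0.32. None of 34 T cell receptor signalling genes passed 2-fold either (median -0.12), nor any of 22 ribosomal protein genes (median -0.00). Among cytokine receptors, 5 of 26 were higher and 3 lower. Il1r2, the decoy receptor for IL-1, stood at 5.44 in WT and 9.82 in mutant EGFP-negative cells, at 8.02, 7.52 and 7.87 in WT EGFP-positive and 10.31, 10.90 and 10.21 in mutant EGFP-positive cells. Il2rb, the chain shared by the IL-2 and IL-15 receptors, was 3.67-fold higher (8.32 and 10.19). Of the survival and death genes, Casp1 and Casp4, the inflammatory caspases, were 8.81-fold (6.57 and 9.71) and 9.91-fold (6.23 and 9.54) higher, and both rose in mutant EGFP-positive cells (limma adjusted p = 0.0131 and 0.00909). The call of Casp1 was lost without WT replicate 3 (EGFP-positive) or without mutant replicate 1, with adjusted p reaching 0.0594.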

How the data were processed

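Per the labels, total RNA of sorted CD4+ cells was extracted with RNEasy, labelled with biotin by the Affymetrix procedure and hybridised, 1 array per sample. Probe set intensity was deposited on a linear scale. RMA is the method named in the submitters' processing notes; it corrects background, gives all arrays a like distribution of values and combines the probes of each set, and it compresses differences at low levels. Neither its version nor whether all arrays were processed together is given in the sources used here.

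Of 45101 probe sets, 64 controls were left out and 45037 kept, with no filter on level. The platform annotation gave 1 symbol for 34945, several for 932 and none for 9160; 34741 matched a current gene record, giving 18193 genes. For a gene with several probe sets, the 1 brightest on average over the 8 arrays was used. List members without such a probe set were not analysed here. The deposited intensity was turned to log2 without a pseudocount (Python 3.11.15, pandas 2.3.3).

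The EGFP-negative contrast is a difference of 2 arrays and was not tested. For EGFP-positive cells limma 3.58.1 in R 4.3.3 fitted a mean per group to all 8 arrays (4 residual degrees of freedom, two-sided, Benjamini-Hochberg adjustment, threshold 0.05). For a single value, exactly permuting 3 against 3 arrays gives no p under 0.1. The fit was tested on simulated data. Samples were grouped by their titles.

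The members and the 41 gene lists (653 of 736 symbols measured) were chosen with earlier results of these data known, so no list is independent evidence. Named were a panel of 31 genes (29 measured), the 15 highest and 15 lowest genes whose brighter array exceeded the median of the probe sets, and of each list up to 4 members past 2-fold, or 2 where none passed. Other genes, among them Prf1, Fasl, Bcl6, Ccnb2, Ube2c, Gbp2 and those set apart from all other arrays, were chosen after their values were seen. Alternatives covered scaling, the probe set of a gene, a pseudocount of 16, a filter on low values, the moderation of limma, a replicate block and leaving out each EGFP-positive array in turn.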

Additional observations from a re-analysis of the deposited data

Results flagged for a closer look

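Only the 142 named genes were searched for opposite directions. Given here are those past 2-fold in EGFP-negative cells whose EGFP-positive groups separated the other way. Over all genes, 11 of the 688 higher genes fell and 6 of the 189 lower genes rose by limma. The difference between the contrasts was not tested. Higher in mutant EGFP-negative cells, by log2 differences, were S100a4 (2.502), Klrg1 (2.31), Gbp3 (2.14), Il2ra (2.09), Cybb (1.901) and Itgae (1.64), while each mutant EGFP-positive array lay below each WT EGFP-positive array, with mean differences of -0.66, -1.23, -0.52, -0.75, -0.64 and -1.73. S100a4 is a calcium-binding protein of memory cells and Cybb the catalytic chain of the phagocyte oxidase; with Gbp3, they did not pass the test in EGFP-positive cells (limma adjusted p = 0.0759, 0.1 and 0.0815). Klrg1, an inhibitory lectin receptor, stood at 5.74 in WT and 8.04 in mutant EGFP-negative cells, at 9.45, 9.76 and 9.54 in WT EGFP-positive and at 8.81, 8.27 and 7.99 in mutant EGFP-positive cells. Itgae, the CD103 integrin chain, stood at 4.66 and 6.31 in WT and mutant EGFP-negative cells, at 9.72, 10.39 and 9.18 in WT EGFP-positive and at 8.21, 8.50 and 7.39 in mutant EGFP-positive cells; its other probe set differed by 0.66 between the EGFP-negative arrays. By limma the falls of Klrg1 (adjusted p = 0.00815), Il2ra (0.0119) and Itgae (0.019) passed the threshold; without WT replicate 1, or without mutant replicate 1, the calls of Il2ra and Itgae were lost.

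Lower in mutant EGFP-negative cells were the gamma chain segment Trgv1 (-2.33) and Tgfbr3 (-1.49), with rises of 1.19 and 0.67 in EGFP-positive cells by limma (adjusted p = 0.00314 and 0.0417). Trgv1 stood at 7.89 and 5.57 in WT and mutant EGFP-negative cells, at 5.42, 5.79 and 5.25 in WT EGFP-positive and at 6.79, 6.73 and 6.51 in mutant EGFP-positive cells. The call of Tgfbr3 was lost in 4 of the 6 fits without 1 EGFP-positive array (all but those without WT replicate 3 or mutant replicate 1), under quantile normalization and with the replicate block. Its other probe set differed by -0.80 between the EGFP-negative arrays. Of 3 measured markers of gamma delta T cells, none passed 2-fold between the EGFP-negative arrays. Trdc, Trdv4, Tcrg-C1, Tcrg-C2 and Tcrg-C4 were not measured, and Blk and Sox13 were dimmer than the array median on both. This list therefore cannot show whether gamma delta T cells differed.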

How the results depend on the processing

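With 1 array per genotype, no EGFP-negative difference has an error. Over the alternatives of scaling, probe set, pseudocount, filter and spread, and without the antibody genes and Xist or the cell cycle lists (both chosen after seeing the data), the count of higher genes lay between 571 and 699 and that of lower genes between 131 and 211. Higher genes made up 76.0% to 81.4% of both, against 78.4%. Over single probe sets, with or without a gene name, the split was more even, with 1269 higher and 773 lower. Of 142 named genes, only Ighm reversed, to 0.27 with the median over its probe sets, against -1.92; the cause was not tested. With that median 36 other named genes moved, and 37 with the pseudocount. The Th2 median was 0.88 with the pseudocount, against 1.17. The median of the regulatory T cell signature was 1.73 with the probe set median and 1.67 with the pseudocount, that of the mitosis list 2.17 with the former; without dim genes the cytotoxic median was 0.76 and the B cell marker median 0.48, against 0.36 and 0.10, and the latter was -0.13 with the probe set median. Without dim genes, medians also moved for chemokine ligands (2.58, against 0.32), chemokine receptors (0.41, against 0.17), killer lectin receptors (0.77, against -0.12), natural killer cell markers (0.97, against 0.51), the TGF-beta pathway (-0.57, against -0.23), forkhead and Ikaros factors (-0.48, against -0.25) and erythroid and platelet markers (-0.18, against 0.05). With the probe set median they moved for effector and memory genes (0.44, against 0.75), cytokine receptors (0.16, against 0.24), survival and death genes (0.34, against 0.14), T cell receptor signalling (-0.02, against -0.12) and control genes (0.16, against 0.06). In EGFP-positive cells the 5734 calls of limma ranged from 3355 (without WT replicate 1) to 7556 (without WT replicate 2) when 1 array was left out, with 3356 without mutant replicate 1 and 3716 without mutant replicate 2. Of the 142 named genes, 17 lost a call without WT replicate 1 and 16 without mutant replicate 1. Of the higher genes 457 to 537 still rose there, and of the lower genes 70 to 105 fell. A replicate block by the runs of title numbers gave 4706 calls. Deviations of same-numbered arrays from their group means correlated at 0.12, 0.05 and -0.10. With 3 arrays per group, these values cannot decide whether the numbers pair the samples.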

Other observations

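Several further gene groups differed between the EGFP-negative arrays. Of 18 costimulatory receptors and ligands, 7 were at least 2-fold higher and none lower in mutant cells, with a median of 0.52, and all 7 exceeded the spread within EGFP-positive groups. Beside Icos and Tnfrsf4 they included Tnfsf8, the CD30 ligand, 5.20-fold higher (7.27 in WT and 9.65 in mutant EGFP-negative cells), and Tnfsf11, the osteoclast-promoting cytokine RANKL, 4.63-fold higher (6.33 and 8.54). Tnfsf14, the ligand LIGHT, stood at 5.99 and 7.74 in WT and mutant EGFP-negative cells, at 5.54, 5.27 and 4.85 in WT EGFP-positive and at 7.59, 7.76 and 8 in mutant EGFP-positive cells. The mutant EGFP-negative array lay within the mutant EGFP-positive range for Tnfsf14 and Tnfsf11, and above it for Tnfsf8.

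Of 20 chemokine and lymphoid homing receptors 6 were higher and 1, S1pr1, lower, with a median of 0.17 (0.41 without dim genes). Cxcr6, a receptor of effector cells, stood at 9.35 and 10.46 in WT and mutant EGFP-negative cells, at 5.71, 6.23 and 6.75 in WT EGFP-positive and at 11.45, 11.51 and 11.13 in mutant EGFP-positive cells. Both EGFP-negative arrays thus lay between the EGFP-positive groups. Ccr2, the receptor for the monocyte attractant CCL2, was 3.14-fold higher by its brightest probe set (6.18 and 7.83), with other probe sets between -0.38 and 1.18. Of 14 chemokine ligands 5 were higher and none lower, with a median of 0.32 (2.58 without dim genes); Ccl1, the ligand of Ccr8, was 6.18-fold higher (5.81 and 8.44).

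Among 26 cytokine receptors, Il12rb1, a chain of the IL-12 receptor, was 2.99-fold higher (6.12 and 7.71). Of 16 integrins 3 were higher (Itga1, Itgae and Itgb1), of 8 killer lectin receptors 2 (Klrc1 and Klrg1), of 10 amino acid transporters 1 (Slc1a4) and of 19 survival and death genes 4, and none was lower in these groups. For all 3 integrins another probe set fell short of 2-fold. Pmaip1, which encodes the pro-apoptotic protein NOXA, stood at 5.25 and 7.58 in WT and mutant EGFP-negative cells and between 7.70 and 9.89 on the 6 EGFP-positive arrays. Of 15 forkhead and Ikaros factors 3 were higher (Ikzf2, Foxp3 and Ikzf3) and 1, Foxo1, lower. None of 22 cholesterol and fatty acid synthesis genes and 10 control genes passed 2-fold. Nor did any of 9 erythroid and platelet, 9 immature thymocyte or 11 stroma markers. These counts stand beside 3.78% higher and 1.04% lower over all genes, a share by which short lists hold few calls. Of 7 plasma cell markers, Jchain (10.11 and 6.49) and Ighm (12.27 and 10.34) were lower; the other probe sets of Ighm differed by -1.41 to 1.83.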
